A study of Sus scrofa with 12 samples.

Results

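The genes described here encode splicing factors and RNA-binding proteins of 6 symbol families: SRSF, HNRNP, SF3A/SF3B, PRPF, SNRNP and RBM. They are all mRNA genes of the pig RefSeq annotation (Sscrofa11.1) whose symbol has one of these stems followed by a number, or begins with HNRNP. Left out are 4 genes (HNRNPA2B1, HNRNPC, RBM15 and RBM15B) whose proteins are linked to m6A itself. The rule found 90 genes among 20678 mRNA genes: 11 SRSF, 17 HNRNP, 9 SF3A/SF3B, 12 PRPF, 7 SNRNP and 34 RBM genes. They are called splicing genes below, although some of the RBM proteins act outside splicing.

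Splicing removes introns from the primary transcript and is carried out by the spliceosome, which is built on each intron from small nuclear ribonucleoproteins (snRNPs). The U1 snRNP recognises the start of the intron, the U2 snRNP with its SF3A and SF3B complexes binds the branch point, and the tri-snRNP of U4, U6 and U5 joins before catalysis. SR proteins (SRSF) and heterogeneous nuclear ribonucleoproteins (HNRNP) bind exons and introns and decide which splice sites are used, and the testis is among the tissues richest in alternative splicing, whereas mature sperm make little new RNA and carry transcripts left from spermatogenesis.

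The study compared m6A, the methylation of adenosine at its N6 position, in fresh boar sperm (Fs) with that in sperm that had been frozen and thawed (Fts). Sperm-rich fractions came from 3 Duroc boars, 5 from each, and every ejaculate was divided between the groups. Fs was put straight into liquid nitrogen, while Fts was cooled to 17 °C, taken up in a lactose and egg yolk extender, cooled to 4 °C, mixed with extender holding 6% glycerol, frozen in straws and thawed; the ages of the boars are not given in the sources used here. RNA without ribosomal RNA was broken into fragments of about 100 nt and precipitated with an anti-m6A antibody, which gave 3 IP libraries and 3 input libraries in each group, 12 in all.

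The data are the m6A peaks that the authors called in each of the 6 IP samples against the input of that sample. Each peak has a MACS score, which is 10 times the negative log10 of its p-value, so that a score of 50 is a p of 1e-05 and a score of 20 a p of 0.01. The lists of Fs 1, 2 and 3 held 8015, 10378 and 10335 peaks, those of Fts 9682, 11510 and 11982, and values below are given in this order of samples. The number of reads per library, which the authors give in a supplement, is not in the files used here, and the number of peaks does not measure it.

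Peaks on the splicing genes were more numerous in Fts than in Fs. Fs had 34, 43 and 52 of them, Fts 97, 125 and 116. Many deposited peaks end at exon borders, so a stretch that spans several exons may count as several peaks, and with peaks joined across exon junctions the numbers were 32, 40 and 49 in Fs and 81, 99 and 96 in Fts. The groups did not overlap either way. The means before joining were 43.0 ± 9.0 and 112.7 ± 14.3 (SD, n = 3), a ratio of 2.62, whereas unjoined peaks on all mRNA genes had a ratio of 1.21. Joined numbers over all mRNA genes are not given here, so this contrast holds for unjoined peaks only. As a share of all peaks on mRNA exons, the splicing genes held 0.499%, 0.488% and 0.596% in Fs and 1.14%, 1.21% and 1.09% in Fts. The splicing gene peaks covered 11415, 14532 and 14629 nt in Fs and 31410, 38613 and 34567 nt in Fts, and their median score was 15.8, 9.01 and 10.9 in Fs and 24.3, 35.7 and 23.2 in Fts. Over all peaks on mRNA exons the median score was 11.9, 11.4 and 10.7 in Fs and 13.1, 16.2 and 13.4 in Fts. The lists hold weak peaks: 44.1%, 60.5% and 53.8% of the splicing gene peaks in Fs and 38.1%, 31.2% and 35.3% in Fts had a score under 13, a p above about 0.05, so many of the counted peaks are not shown to be enriched.

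More of the splicing genes carried a peak in Fts. Of the 90 genes, 29, 32 and 41 had at least 1 peak in Fs, against 45, 56 and 56 in Fts, a difference of the means of 18.3 genes against a SD of 6.25 in Fs and 6.35 in Fts. The lowest Fts sample lay above the highest Fs sample by 4 genes. Among all mRNA genes 5254, 6393 and 6301 had a peak in Fs and 5548, 6132 and 6545 in Fts, so that the groups overlapped there. With peaks of score 50 or more, 5, 6 and 6 splicing genes (6.30% on average) were marked in Fs and 24, 37 and 27 (32.6%) in Fts, while the averages over all mRNA genes were 5.99% and 8.70%.

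**Figure D1:**
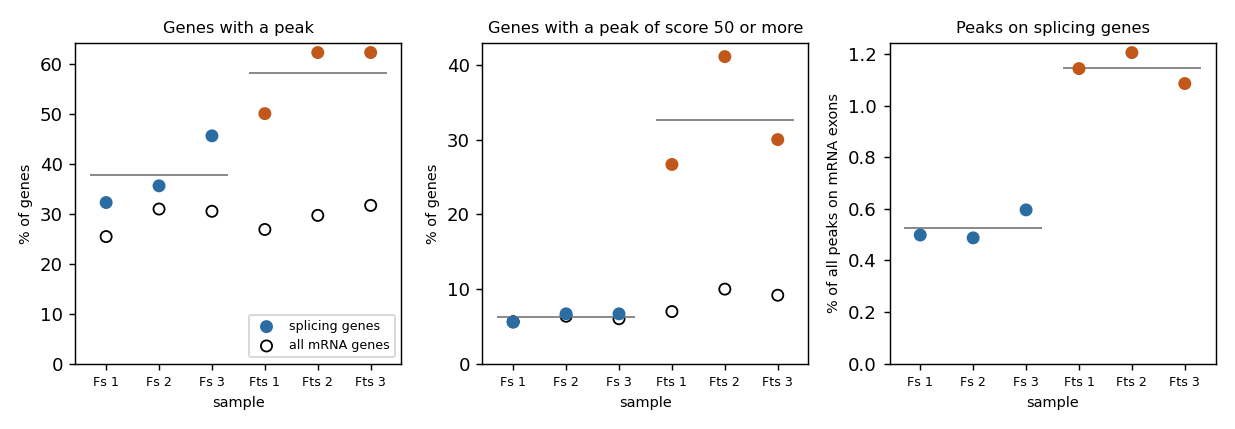
Each point is 1 sample: blue is Fs, orange is Fts, grey lines are group means of the splicing genes and open circles are all mRNA genes; the axes give the percent of genes with a peak (left), the percent with a peak of score 50 or more (middle) and the percent of all mRNA exon peaks that lie on splicing genes (right). In Fs the splicing genes with a score of 50 or more sit at 5.56% to 6.67%, next to all mRNA genes, and in Fts at 26.7% to 41.1%.

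Gene by gene, 20 of the 90 splicing genes (22.2%) had more peaks in every Fts sample than in every Fs sample, while 5.08% of all mRNA genes met this rule. No splicing gene had fewer peaks in every Fts sample than in every Fs sample, a rule met by 3.03% of all mRNA genes. By the highest score of the gene in place of the number of peaks, 26 splicing genes (28.9%) stood higher in every Fts sample and none stood lower, while 7.45% of all mRNA genes stood higher and 6.03% lower. For each of the 20 genes the two-sided exact permutation test of 3 against 3 samples on the difference of the mean peak number gave p = 0.1, the smallest p that it can give, so none of these differences can pass a threshold of 0.05. The mean number of peaks was higher in Fts for 51 splicing genes, lower for 11 and equal for 28, and of these 28, 19 had no peak in any sample. That is 56.7% higher and 12.2% lower, next to 25.3% and 24.4% of all mRNA genes. A gene without a peak in any sample cannot be higher or lower by any of these rules. A peak in some sample was found for 78.9% of the splicing genes and 56.6% of all mRNA genes, so the shares have unlike bases. The 20 genes had longer models than the rest, with a median of 16.5 exons and 3653 nt of exon against 9 exons and 3350 nt for the 51 other splicing genes with a peak. The 19 genes without a peak had a median of 6 exons and 2681 nt, and all 90 genes 10 exons and 3153.5 nt, next to 7 exons and 2987.5 nt for all mRNA genes.

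**Figure D2:**
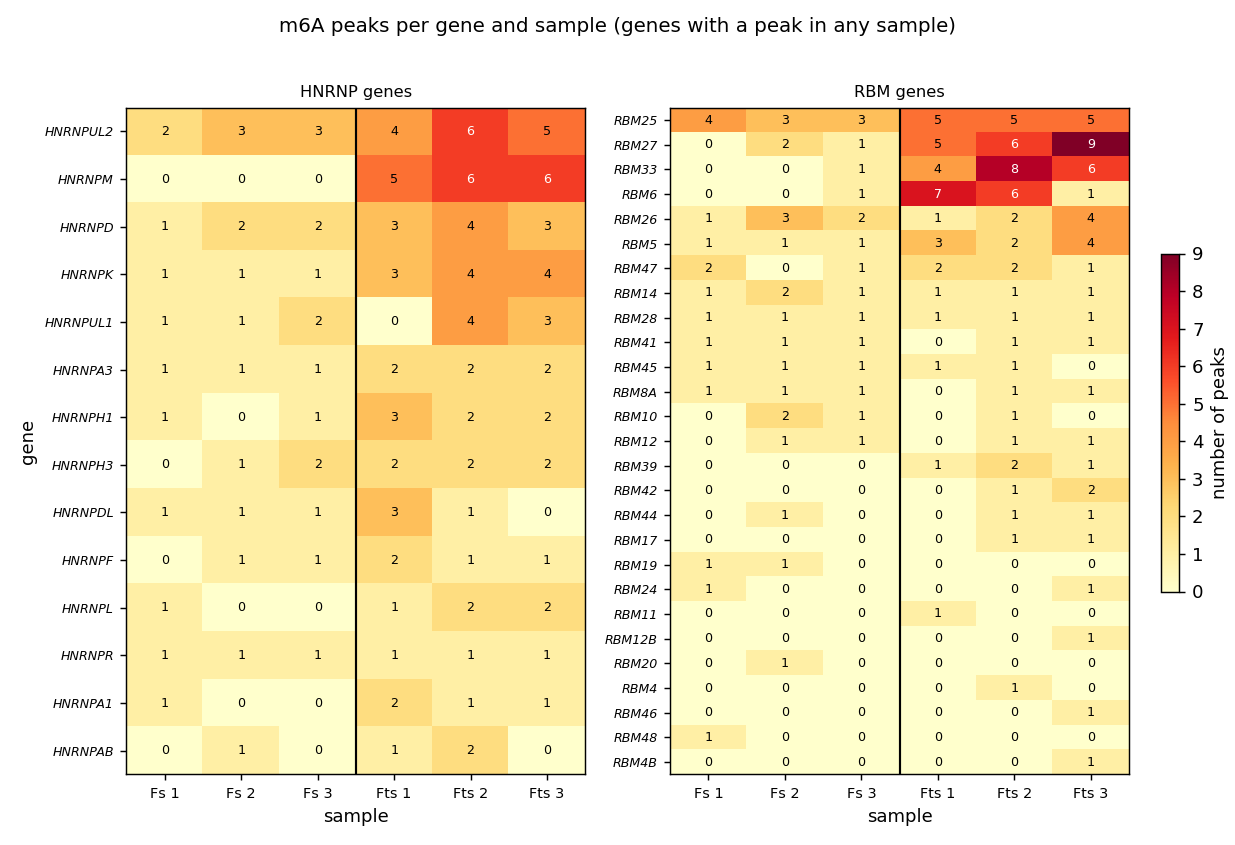
Number of peaks of the HNRNP genes (left panel) and RBM genes (right panel) with a peak in any sample (rows) in the 6 IP samples (columns), with Fs left and Fts right of each black line and darker colours for more peaks. RBM27, RBM33, HNRNPM, HNRNPUL2 and RBM25 have 4 or more peaks in each Fts sample, and the highest count is 9, for RBM27 in Fts 3.

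Among the SR proteins the ratio of the mean peak numbers, 2.09, was the lowest of the 6 families. The 11 SRSF genes held 3, 2 and 6 peaks in Fs and 7, 7 and 9 in Fts, and 2 of them had more peaks in every Fts sample. SRSF11, an SR-related protein that binds the U2 auxiliary factor, had 1, 1 and 2 peaks in Fs and 3 in each Fts sample. Exon 20 of SRSF11 (chr6:142629747-142629878) was called in all 6 samples, at 4.19, 9.90 and 23.6 in Fs and 3.10, 63.6 and 51.5 in Fts, which overlap, while exon 21 (26.6, 15.98 and 14.1) and the last exon (6.44, 34.6 and 4.45) were called in the 3 Fts samples alone. SRSF6, an activator of exons with purine-rich enhancers, had no Fs peak and 1, 2 and 1 Fts peaks, with the shared peak on its last exon (chr17:46122177-46122743) at 30.6, 78.5 and 41.1. SRSF1, the founding SR protein, went the other way, with 1 peak in each Fs sample (6.21, 8.66 and 3.32) and 0, 0 and 1 in Fts (7.56 in sample 3). Its groups overlapped, and all of its scores were low. SRSF2, SRSF3 and SRSF4 had no peak in any sample.

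The HNRNP genes held the most peaks after the RBM genes, with 11, 13 and 15 in Fs and 32, 38 and 32 in Fts, and 6 of their 17 members had more peaks in every Fts sample. HNRNPM, whose protein binds GU-rich sequences and controls exon choice, had no peak in any Fs sample and 5, 6 and 6 peaks in Fts. All 3 Fts samples carried a peak on exon 2 of its 16 exons (chr2:70846712-70846887, minus strand) with scores of 293, 273 and 532, and on the short exons 12 (6.74, 107 and 151) and 13 (9.18, 21.3 and 11.9). The other HNRNPM peaks lay on exons 1, 6, 9 and 14 or outside the longest coding transcript and were found in 1 or 2 of the Fts samples.

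HNRNPUL2, a nuclear protein related to the scaffold attachment factor HNRNPU, had the most peaks of the family, 2, 3 and 3 in Fs and 4, 6 and 5 in Fts. Its exon 2 (chr2:9037454-9037589, plus strand) was called in every sample, with scores of 3.74, 3.21 and 6.46 in Fs and 196, 178 and 172 in Fts. The scores of the groups are thus far apart, although each was called against its own input and the scores are not scaled between samples. On exon 1 (chr2:9034435-9035531) the scores were 64.5, 23.8 and 3.77 in Fs and 353, 980 and 540.04 in Fts.

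HNRNPK, a KH-domain protein that binds C-rich RNA, had a single peak per Fs sample and 3, 4 and 4 peaks in Fts, and these lay in different places. In Fs the peak lay in the last exon, exon 16, at the stop codon (chr10:30986596-30986799, plus strand), with scores of 786, 825 and 509, among the highest Fs scores of all splicing genes, and none of the Fts samples had a peak there. In Fts the peaks shared by all 3 samples lay at the first exon (chr10:30975671-30975804, scores 9.43, 64.8 and 27.1), on exon 3 (chr10:30978484-30978581, scores 67.8, 154 and 87.0) and upstream of the last exon on exons of other transcripts (chr10:30985230-30985878, scores 974, 59.85 and 29.45). The middle 40 nt of the stop codon region and of the exon 3 region each occur at 2 places in the genome, so reads of a near-identical copy may enter the HNRNPK values. How reads that map to several places were treated is not given in the sources used here.

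HNRNPD, which binds AU-rich elements, had 1, 2 and 2 peaks in Fs and 3, 4 and 3 in Fts. Its exon 3 (chr8:135856792-135856960) was called in all 6 samples at scores of 10.9, 24.97 and 14.0 in Fs and 66.8, 27.3 and 111 in Fts. HNRNPA3, a relative of HNRNPA1, had 1 peak in each Fs and 2 in each Fts sample. In Fs the HNRNPA3 peak was on exon 9 in samples 1 and 2 (7.88 and 36.9) and on exon 4 in sample 3 (3.04), and in Fts both exons were called in every sample, with 124, 202 and 240 on exon 4 and 87.9, 135 and 109 on exon 9. The middle of its exon 4 occurs at 3 places in the genome, so its values are uncertain in the same way.

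HNRNPH1, which binds runs of G, had 1, 0 and 1 peaks in Fs and 3, 2 and 2 in Fts. Its relative HNRNPF had overlapping numbers, 0, 1 and 1 in Fs and 2, 1 and 1 in Fts, but the place differed. In Fts the large last exon of HNRNPF, which holds its coding sequence (chr14:61647303-61648780, minus strand), was called at 595, 1212 and 923, and no Fs sample had a peak there. The Fs peaks of HNRNPF (8.11 and 23.7 in samples 2 and 3) were on the noncoding exon 3, a place called in Fts 1 too (9.68). HNRNPR, found in the same numbers in both groups, had 1 peak per sample on its last exon (chr6:81203400-81204361), with scores of 39.3, 27.4 and 68.6 in Fs and 215, 251 and 309 in Fts that did not overlap.

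**Figure D3:**
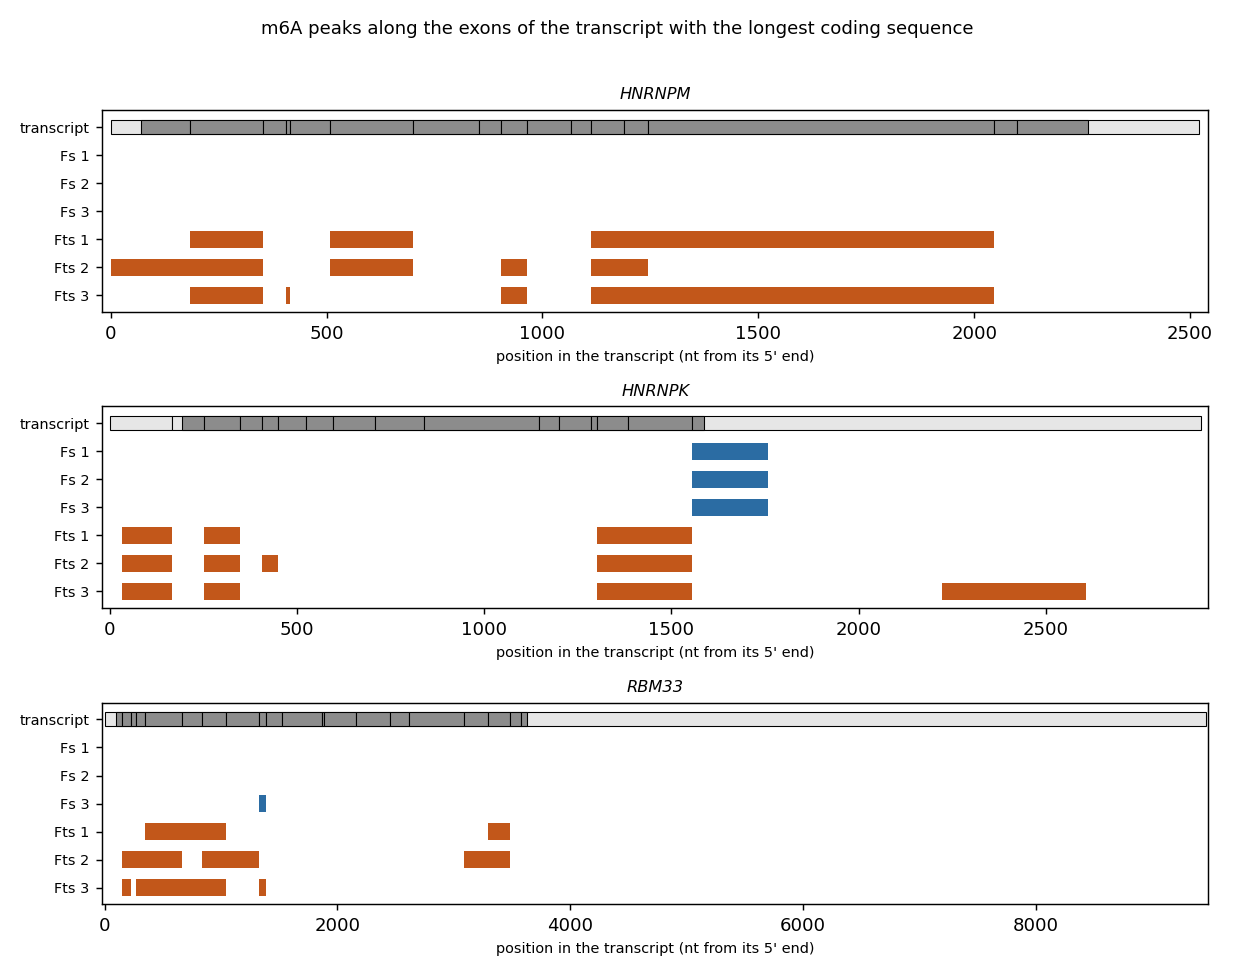
Peaks of HNRNPM, HNRNPK and RBM33 drawn on the exons of the transcript with the longest coding sequence (dark grey is coding, light grey is not), by position in nt from the 5' end, with 1 line per sample (blue Fs, orange Fts); peak parts outside these exons are not drawn and peaks on neighbouring exons run together. HNRNPM has no Fs peak, HNRNPK has its Fs peak at the stop codon and its Fts peaks elsewhere, and RBM33 has 1 Fs peak and 4, 8 and 6 Fts peaks.

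The U2 snRNP genes showed 2, 1 and 4 peaks in Fs and 8, 13 and 11 in Fts over the 9 SF3A and SF3B genes, and 4 of the 9 had more peaks in every Fts sample. SF3A1, the subunit that bridges SF3A to the rest of the U2 snRNP, had the most, with 1, 0 and 1 peaks in Fs and 2, 3 and 4 in Fts. SF3B1, which holds the branch point helix, had 0, 0 and 1 peaks in Fs and 2, 3 and 3 in Fts, and its exon 15 (chr15:101286339-101286609) was called in the 3 Fts samples at the low scores of 3.05, 7.80 and 11.0. SF3B2 had no Fs peak and 1, 3 and 2 Fts peaks, and the peak shared by the Fts samples (61.4, 275 and 187) lay on exonic sequence of another transcript than the one with the longest coding sequence (chr2:6282356-6282844). SF3A3 had no Fs peak and 1, 2 and 1 Fts peaks, with exon 13 (chr6:93958981-93959145) at 41.1, 57.0 and 24.4. SF3B4 had the same mean in both groups, with 1, 1 and 1 peaks in Fs and 2, 1 and 0 in Fts. SF3A2 and SF3B6 had no peak.

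The SNRNP genes encode proteins of the individual snRNPs and held 0, 1 and 5 peaks in Fs and 10, 8 and 7 in Fts. SNRNP35 and SNRNP27 had more peaks in every Fts sample. SNRNP35, a protein of the minor spliceosome, had no Fs peak and 1 in each Fts sample, on its exon 2 (chr14:29473569-29474646) at 24.3, 26.8 and 74.9. SNRNP27, a tri-snRNP protein, had no Fs peak and 2, 1 and 1 in Fts, but no region was shared by the 3 Fts samples. SNRNP40 of the U5 snRNP and SNRNP70 of the U1 snRNP had 7 peaks each, the most of the family. SNRNP40 had 0, 0 and 1 peaks in Fs and 3, 2 and 1 in Fts, with exon 3 (chr6:87874137-87874230) at 183, 303 and 394 in Fts and without a peak in Fs. SNRNP48, a further protein of the minor spliceosome, had 1 peak in each Fts sample on exon 8 (chr7:4931911-4932075) at the close scores of 377, 343 and 362, and in Fs a single peak on exon 1 (10.7, sample 3). SNRNP70 had 0, 1 and 2 peaks in Fs and 1, 1 and 2 in Fts. SNRNP25 had no peak.

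The 12 PRPF genes encode proteins that assemble and activate the spliceosome. PRPF4B, a kinase that phosphorylates tri-snRNP proteins, had 0, 0 and 1 peaks in Fs and 1, 4 and 4 in Fts (exact permutation p = 0.2). Its exon 8 had a score of 1570 in Fts 2 (chr7:2404011-2404101) and no peak in the other 5 samples. PRPF38B had 1 peak in each sample, on its last exon (chr4:111339991-111341014), at 91.2, 185 and 126 in Fs and 67.0, 689 and 375 in Fts, which overlap.

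PRPF31, which binds U4 snRNA and joins the U4/U6 snRNP to U5 in the tri-snRNP, had 1, 1 and 1 peaks in Fs and 1, 1 and 0 in Fts, on neighbouring exons. In Fs the peak was exon 6 of 14 (chr6:56003989-56004095, minus strand) at 849, 5.03 and 80.1. In Fts samples 1 and 2 it was exon 5 (chr6:56004673-56004770) at 1937 and 1932, among the highest scores of the splicing genes, and Fts 3 had no peak on the gene. The number of PRPF31 peaks therefore did not separate the groups, whereas the exon did, in all 5 samples with a peak. PRPF19, PRPF39 and PRPF4 had no peak in any sample.

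The 34 RBM genes held 16, 21 and 17 peaks in Fs and 32, 44 and 44 in Fts, and 5 of them (RBM5, RBM25, RBM27, RBM33 and RBM39) had more peaks in every Fts sample. RBM27, a zinc finger protein linked to the decay of nuclear polyadenylated RNA, had 0, 2 and 1 peaks in Fs and 5, 6 and 9 in Fts. Its exons 17 (25.9, 3.23 and 3.49) and 19 (22.6, 215 and 104) were called in the Fts samples alone, and exon 6 reached 897 in Fts 3 without a peak in any other sample. RBM33, which is known to bind the m6A demethylase ALKBH5, had 0, 0 and 1 peaks in Fs and 4, 8 and 6 in Fts. RBM33 exon 5 (chr18:2648872-2649184, minus strand) had scores of 155, 1190 and 803 in Fts, exon 7 (chr18:2627511-2627719) had 163, 255 and 215, and neither had an Fs peak. HNRNPM, RBM27 and RBM33 had the largest differences of the mean among the 90 genes, each 5.67 peaks.

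RBM25, a regulator of alternative splicing that works with the U1 snRNP, had the most peaks of all splicing genes, 25 over the 6 samples, with 4, 3 and 3 in Fs and 5 in each Fts sample. Unlike most of the 20 genes its highest scores overlapped and were not higher in Fts, at 99.1, 141 and 107 in Fs and 61.1, 105 and 80.3 in Fts. Exon 11 of RBM25 (chr7:96452059-96452281) was called in the 3 Fs samples at those Fs scores and in Fts samples 1 and 3. RBM5 and RBM6 are neighbouring genes on chromosome 13 for related splicing regulators. RBM5 had 1, 1 and 1 peaks in Fs and 3, 2 and 4 in Fts, with its start codon exon 3 (chr13:32583241-32583406) at 25.3, 15.0 and 32.7 in Fs and 61.4, 76.1 and 76.8 in Fts, which do not overlap, and exon 4 (8.21, 35.7 and 21.6) in Fts alone. RBM6 had 0, 0 and 1 peaks in Fs and 7, 6 and 1 in Fts (exact permutation p = 0.2). The large exon 4 of RBM6 (chr13:32471840-32473118) had a score of 3100 in Fts 1 and Fts 2, the highest of any splicing gene, and no peak in Fts 3 or in Fs, so that the Fts samples differed among themselves. Exactly this score is given to 178 peaks of the 6 lists, and 6 peaks lie above it, so it is close to the upper limit of the scale and may not rank such peaks. RBM39, a splicing factor related to U2AF2, had no Fs peak and 1, 2 and 1 Fts peaks, with exon 4 (chr17:39057150-39057344) at 32.5, 213 and 73.2.

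Some RBM genes had equal or overlapping peak numbers, or a lower mean in Fts. RBM14, a coactivator of transcription found in paraspeckles, had a peak in each sample, on exon 2 in the 3 Fs samples (chr2:5793283-5793928, scores 24.8, 9.31 and 25.9) and in none of the Fts samples, while in Fts the peaks were on exon 1 (7.25, 16.05 and 8.39), which was called in Fs 2 too (12.01). RBM28 and RBM26 had peaks in all 6 samples with overlapping numbers: RBM28, a nucleolar protein, had 1 in each, on exon 7 in Fs 1 (15.8) and in Fts (24.2, 26.6 and 33.6) and on exon 10 in Fs 2 and Fs 3 (3.37 and 10.9). RBM26, a partner of RBM27, had 1, 3 and 2 in Fs and 1, 2 and 4 in Fts, with exon 18 called in the Fts samples alone (13.1, 3.47 and 24.02). RBM10, a relative of RBM5, had 0, 2 and 1 peaks in Fs and 0, 1 and 0 in Fts (exact permutation p = 0.7), and RBM19, which acts in ribosome assembly, had 1, 1 and 0 in Fs and none in Fts (exact permutation p = 0.4). With SRSF1 these are the genes with the largest excess of peaks in Fs, a mean difference of only 0.667 peaks each, and their scores did not exceed 20.6. Of the germ cell genes, RBM46 had 1 peak (23.8, Fts 3), and RBM44 had 1 in Fs 2 (3.66), Fts 2 (542) and Fts 3 (50.6). RBM3, a protein induced by cold, had no peak in any sample, and neither had RBM7, RBM18, RBM22, RBM23, RBM34 and RBM38. HNRNPA0, HNRNPH2 and HNRNPLL complete the 19 splicing genes without a peak.

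Some genes were marked in both groups. The 12 splicing genes with a peak in all 6 samples (13.3%, next to 7.65% of all mRNA genes) were SRSF11, HNRNPA3, HNRNPD, HNRNPK, HNRNPR, HNRNPUL2, PRPF38B, RBM5, RBM14, RBM25, RBM26 and RBM28. In 7 of these 12 genes the highest score was higher in every Fts sample, and the matching share over all mRNA genes was not counted. With a score of at least 20, 4 splicing genes had a peak in all 6 samples, and with a score of at least 50, 3 did. At the other end, 7 genes (7.78%) had no peak in any Fs sample and a peak in every Fts sample, namely HNRNPM, RBM39, SF3A3, SF3B2, SNRNP27, SNRNP35 and SRSF6, a pattern of 3.16% of all mRNA genes. The reverse pattern was found in none of the splicing genes and in 2.36% of all mRNA genes. A peak of score 50 or more in every Fts sample and in no Fs sample was found for 12 of the 90 splicing genes, and for 2.13% of all mRNA genes.

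The peaks were then merged over samples into regions to see whether the same exons were marked. The splicing genes had 212 such regions, and 141 of them (66.5%) were exactly 1 annotated exon. A peak in all 3 Fts and no Fs sample was found in 26 regions of 19 genes (12.3% of the 212), while 6.82% of all regions on mRNA exons met this rule. The reverse was found in 3 regions (1.42%), in HNRNPK, PRPF31 and RBM14, next to 3.63% of all regions. Both counts depend on the samples and the score minimum. The 26 regions became 46 without Fts 1, 42 without Fts 3 and 15 with a score of at least 50. The 3 regions became 6 without Fs 1 and 1 with a score of at least 20. A peak in all 6 samples was found in 7 regions, while 3.31% of all regions met that rule; the 7 lie in HNRNPD, HNRNPR, HNRNPUL2 (2 regions), PRPF38B, RBM5 and SRSF11. HNRNPK was the only splicing gene with regions of both exclusive kinds. Of the 212 regions, 85 were found in a single sample, 40.1% next to 47.3% of all regions.

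Along the transcripts the splicing gene peaks lay mainly in the CDS in both groups. The share of peaks in the CDS, more than 100 nt from the start and stop codons, was 70.6%, 74.4% and 65.4% in Fs and 73.2%, 72.8% and 74.1% in Fts. The difference of the means, 3.25 percentage points, was smaller than the SD in Fs (4.53), and the groups overlapped. With peaks of score 20 or more the difference was 12.5 points, and with score 50 or more 14.7 points. At score 50 or more the Fs samples held only 5, 6 and 6 splicing gene peaks, and the Fts samples 31, 58 and 37. Over all mRNA genes the CDS share was 64.4 ± 0.720% in Fs and 70.0 ± 0.494% in Fts. Start codon peaks made up 9.11% and 8.63% of the splicing gene peaks on average, stop codon peaks 7.26% and 4.47%, 3'UTR peaks 2.40% and 2.67%, and 5'UTR peaks 3.04% and 1.43%. The CDS class takes up 44.2% of the length of these transcripts and the 3'UTR 35.5%. Within the CDS the median peak position was 38.2%, 50.5% and 43.8% of the way from start to stop codon in Fs and 41.9%, 44.4% and 46.7% in Fts.

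The motif GGACT, a form of the sequence in which m6A is usually found, was searched on the strand of the transcript in the middle 100 nt of each region of at least that length. It was present in 12 of 175 regions of splicing genes (6.86%) and in 9.86% of all 20021 such regions, and the median GC content of these windows was 51% and 52%. Of the regions marked in all 3 Fts and no Fs sample, 1 of 21 in the splicing genes and 8.40% in all genes held it. Of those marked in all 6 samples, 2 of 7 and 8.85% held it, and of those marked in Fs alone, 0 of 3 and 10.7%. A match is a description of the sequence and does not place a methylated base. The share expected from base composition alone was not computed, so these values do not show enrichment of the motif. Other forms of the motif were not searched.

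The coding regions below are shown because they separate the groups: each was called in all 3 samples of one group and in none of the other, and they have the highest scores among the 19 regions of at most 300 nt that were called in this way or in all 6 samples, belong to the CDS class and lie wholly within the coding sequence of the transcript used. HNRNPM exon 2, with higher scores than most of them, does not lie wholly within it and is not shown. They were read from Sscrofa11.1 on the transcript strand, 5' to 3', with GGACT in capitals. PRPF31 was marked in Fs and the other 5 in Fts. Of the regions shown only the SNRNP48 exon held GGACT, once, at position 142. The paper describes the wider motif RRACH, where R is a purine and H is any base but G. Other forms of it were not marked, although some are present, such as GGACA in PRPF31 and SNRNP40. GC content ranged from 32.7% in RBM27 to 72.1% in SNRNP48.
PRPF31 exon 6, chr6:56003989-56004095, Sscrofa11.1, minus strand: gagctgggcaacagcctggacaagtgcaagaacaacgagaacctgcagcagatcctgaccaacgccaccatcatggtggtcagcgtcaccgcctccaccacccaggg
SNRNP40 exon 3, chr6:87874137-87874230, Sscrofa11.1, minus strand: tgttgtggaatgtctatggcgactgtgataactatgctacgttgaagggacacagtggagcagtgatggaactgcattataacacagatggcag
SNRNP48 exon 8, chr7:4931911-4932075, Sscrofa11.1, plus strand: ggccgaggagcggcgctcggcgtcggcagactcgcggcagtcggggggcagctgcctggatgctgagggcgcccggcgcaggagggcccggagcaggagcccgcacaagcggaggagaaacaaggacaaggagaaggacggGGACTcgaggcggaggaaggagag
RBM33 exon 7, chr18:2627511-2627719, Sscrofa11.1, minus strand: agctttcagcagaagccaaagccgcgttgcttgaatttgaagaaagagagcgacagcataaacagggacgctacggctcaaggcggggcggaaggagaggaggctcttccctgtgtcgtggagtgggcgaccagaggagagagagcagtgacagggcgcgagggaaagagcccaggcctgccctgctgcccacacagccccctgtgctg
RBM27 exon 19, chr2:147626343-147626507, Sscrofa11.1, plus strand: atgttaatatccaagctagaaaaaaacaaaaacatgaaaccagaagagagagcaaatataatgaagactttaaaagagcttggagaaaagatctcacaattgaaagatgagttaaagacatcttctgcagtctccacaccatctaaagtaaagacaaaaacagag
RBM39 exon 4, chr17:39057150-39057344, Sscrofa11.1, minus strand: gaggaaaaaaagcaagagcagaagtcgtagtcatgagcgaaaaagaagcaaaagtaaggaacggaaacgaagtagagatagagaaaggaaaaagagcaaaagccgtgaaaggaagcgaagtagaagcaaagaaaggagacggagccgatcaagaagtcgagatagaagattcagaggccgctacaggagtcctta

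Other genes of splicing outside these families were counted from a list of 92 names, 88 of which are annotated. They held 52, 62 and 66 peaks in Fs and 89, 118 and 122 in Fts, a ratio of the means of 1.83. Of the 88 genes, 11 (12.5%) had more peaks in every Fts sample and 1 (1.14%) had fewer. The shares of all mRNA genes were 5.08% and 3.03%. By the highest score of the gene, 18 (20.45%) stood higher in every Fts sample and 5 (5.68%) lower. For all mRNA genes these shares were 7.45% and 6.03%, so the share that stood lower was near that of all genes. The genes with the most peaks were ACIN1, a protein of the exon junction complex (3, 2 and 1 in Fs, 4, 7 and 4 in Fts), SRRM1, an SR-related coactivator (1, 0 and 1 in Fs, 4, 7 and 8 in Fts), and EWSR1, an RNA-binding protein of the FET family (1, 3 and 2 in Fs, 4, 4 and 3 in Fts). The nuclear speckle protein SON had 0, 0 and 1 peaks in Fs and 6, 4 and 4 in Fts. Among the genes without an Fs peak were the paraspeckle protein PSPC1 (5, 5 and 6 in Fts), the nuclear matrix protein MATR3 (4 in each Fts sample) and the SR protein kinases SRPK1 (2, 3 and 4) and SRPK2 (2, 3 and 2). KHDRBS3, an RNA-binding protein of the STAR family, had 0, 1 and 0 peaks in Fs and 2, 5 and 2 in Fts. The gene with fewer peaks was XAB2, named after its values were seen, with 1, 1 and 1 peaks in Fs and none in Fts.

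Markers of sperm and of other cells of the ejaculate were read from the same lists, where only the presence of a peak can be seen. Of 15 sperm transcripts, 9 had a peak in any sample, with 7, 8 and 7 peaks in Fs and 8, 12 and 10 in Fts; HSPA4L had the most (1, 1 and 0 in Fs, 4, 6 and 7 in Fts), and PRM1, TNP1, ODF1, AKAP4, SMCP and TSSK6 had none. In the direction of HSPA4L, SPATA18 (none in Fs, 1 in each Fts sample) and ODF2 (none in Fs, 3, 3 and 0 in Fts) had more peaks in Fts on average. PRM2 and TNP2 had 1 peak each, in Fts 2 and Fts 3. Against it, ACR (2 in each Fs sample, none in Fts) and DNAH17 (2, 3 and 2 in Fs, 0, 1 and 0 in Fts) had fewer. So had AKAP3 (2, 1 and 3 in Fs, 0, 0 and 1 in Fts) and CATSPER1 (0, 1 and 0 in Fs, none in Fts). The presence or absence of a peak does not test the labelled cell type, since transcripts without m6A give none. Of 5 epithelial markers, 4 had a peak, with 1, 1 and 2 peaks in Fs and 6, 7 and 6 in Fts. KRT8 had the most, none in Fs and 3, 4 and 2 in Fts, while CDH1 had 0, 1 and 1 in Fs and 0, 0 and 1 in Fts and EPCAM had none in any sample. The summed epithelial counts move with the counts of the splicing genes, and their part in the result was not tested. Leukocyte markers (5 of 7 with a peak) had 1, 2 and 3 peaks in Fs and 1, 2 and 2 in Fts, most of them on PTPRC and CD68 and none on CSF1R and CD14. Markers of fibroblasts, Sertoli and Leydig cells (6 of 8) had 3, 3 and 7 in Fs and 6, 4 and 4 in Fts, with the highest number on COL3A1 and none on AMH and HSD3B1. Within that list COL1A2 (none in Fs and 3, 1 and 1 in Fts) and SOX9 (none in Fs and 1 in each Fts sample) had more peaks in Fts, while COL1A1 (2, 1 and 2 in Fs, 0, 0 and 1 in Fts), PDGFRA (0, 1 and 1 in Fs, none in Fts) and COL3A1 (1, 1 and 4 in Fs, 2, 1 and 1 in Fts) had a lower mean in Fts; their part in the result was not tested either. The authors washed the sperm with a detergent to remove somatic cells before RNA was extracted.

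A peak is a place where the caller scored IP above input, and it does not give the abundance of the transcript, and a peak is found more easily on a transcript with more RNA. In these bulk samples fewer cells that carry a transcript and less RNA per cell cannot be told apart. The scores are not scaled between samples, and the peaks were not compared at equal sequencing depth. Whether equal sample numbers mean one boar, and whether the 3 samples of a group are 3 animals, is not stated, so the spread between samples may be partly technical and the p-values may describe libraries more than boars.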

How the data were processed

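MeRIP-seq libraries of 3 Fs and 3 Fts samples (IP and input) were used as grouped by the labels. The authors trimmed reads with cutadapt (1.9.3 in the submitters' processing notes), aligned them with HISAT2 to susScr11, and called peaks with MACS in each IP sample against its own input, without pooling, after which a program of theirs kept the peaks on mRNAs. The deposited score of a peak is 10 times the negative log10 of its p-value, at least 3.02 and not scaled between samples. The authors' list of sites that differ between groups holds their own comparison and was not used.

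Peaks were assigned to genes of RefSeq annotation release 106 by an overlap of at least 1 base with exons on the same strand (python 3.11.15, pandas 2.3.3, numpy 2.4.6; peak positions fitted the chromosome lengths). Features were taken at the peak's midpoint on the transcript with the longest coding sequence; codon classes reach 100 nt. Regions are merged overlapping peaks of the 6 samples. Counting was tested on simulated peaks. The members, the other splicing genes and the marker lists (sperm, leukocytes, epithelium, and fibroblasts with Sertoli and Leydig cells) were chosen with earlier results of these data known, so no p-value was computed over them. A two-sided exact permutation test was used for named genes. Names were taken from members whose peak numbers do not overlap between groups, those with a peak in all 6 samples, the member with the most peaks per family, the 5 highest scores, the 3 largest rises and falls of the mean, and members without a peak. From the other splicing genes these were the 3 with the most peaks and those without overlap, at most 8; other genes were named after their values were seen. Alternatives changed the score minimum, the number of peaks, the overlap, the strand, the joining of peaks, the codon classes and the samples.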

Additional observations from a re-analysis of the deposited data

How the results depend on the processing

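All differences kept their direction under the alternatives tried (15 settings, 95 values, of which 18 moved, by at least the SD between samples for a difference or by a factor above 1.5 for a count). With a score of at least 20, the Fts minus Fs difference was 26.0 genes with a peak and 49.0 peaks, 12.5 percentage points in the CDS share, with 4 genes marked in all 6 samples and 1 region marked in Fs alone. With a score of at least 50 it was 36.3 peaks and 14.7 percentage points, with 13 genes higher in every Fts sample, 3 genes marked in all 6 samples, 15 regions marked in Fts alone and 1 in Fs alone; fewer peaks enter both settings. With the 8015 highest-scoring peaks of each sample the difference was 57.3 peaks, and with peaks joined across exon junctions 51.7, with 14 genes higher in every Fts sample. Codon classes of 200 nt gave 1.86 percentage points of CDS share. The difference in CDS share thus depends on the score minimum, and the cause was not tested. The matching shares of all mRNA genes and of all regions under the alternatives are not given here. The counts of genes and regions under the alternatives therefore stand without a background.

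Leaving out 1 sample gave 15.8 to 22.0 genes with a peak, 63.5 to 77.5 peaks, 20 to 27 genes higher in every Fts sample and 0 to 1 lower, 0.875 to 5.39 percentage points of CDS share, 12 to 17 genes marked in all samples left, 27 to 46 regions marked in Fts alone and 3 to 6 in Fs alone. The regions moved most without Fts 1 (46) or Fts 3 (42), and without Fs 1 (6). A rule over fewer samples is easier to meet, which holds for every sample left out. Why these samples moved the counts most was not tested.

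The ejaculates were divided between the groups, but which Fs and Fts samples belong together is not stated beyond their numbers. Correlations of the deviations of same-numbered samples from their group means, across 11705 genes, were -0.000764, -0.0176 and 0.00348. With a replicate block, 22 genes had more peaks in Fts in each pair and 0 had fewer. The share of all mRNA genes that meets this paired rule is not given here. The mean differences (18.3 genes, 69.7 peaks and 3.25 percentage points) are by construction those without the block. So are the counts of 12 genes, 26 regions and 3 regions. Read depth was not part of these alternatives.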

Other observations

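Peaks on the opposite strand of splicing gene exons numbered 0, 2 and 0 in Fs and 2, 2 and 1 in Fts. With peaks of either strand counted, 13 splicing genes had a peak in all 6 samples. The Fts minus Fs difference was then 19.0 genes with a peak and 70.7 peaks, and 20 genes had more peaks in every Fts sample. The matching share of all mRNA genes with either strand counted is not given here. Peaks that were exactly 1 annotated exon made up 39.5 ± 0.688% of all peaks on mRNA exons in Fs and 51.7 ± 1.76% in Fts (SD, n = 3). On the splicing genes they made up 41.2%, 60.5% and 55.8% in Fs and 62.9%, 63.2% and 62.9% in Fts.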
